A study of Mus musculus with 18 samples.

Results

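The genes examined here are 10 genes of MHC class I antigen presentation, H2-K1, H2-D1, B2m, Tap1, Tap2, Tapbp, Psmb8, Psmb9, Psmb10 and Nlrc5. The rule that picks them is their symbol, and the set was proposed with earlier results of these data known. All 10 were found among the 55487 genes of the count files, each with 1 row, and all 10 passed the filter on low counts together with the rest of the 12645 protein-coding genes tested.

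MHC class I molecules show short peptides from proteins made inside a cell to CD8+ T cells, which patrol the intestinal epithelium as intraepithelial lymphocytes. Proteins are cut by the proteasome, whose 3 catalytic subunits are replaced by Psmb8, Psmb9 and Psmb10 in the immunoproteasome. The peptides are carried into the endoplasmic reticulum by the TAP transporter, loaded onto a heavy chain paired with β2-microglobulin with the help of tapasin, and displayed at the surface. Interferon-γ is a known inducer of most of these genes, and Nlrc5 encodes the transactivator of class I genes.

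The libraries came from the whole wall of the ileum of 18 C57BL6/J mice on chow, 1 library per mouse. Of these, 6 were controls, 6 were IEC-Ppara heterozygous and 6 were IEC-Ppara homozygous mice. All carried the CAG-Ppara,-EGFP transgene, a FLAG-tagged Ppara followed by EGFP at the Col1a1 locus that is turned into its active orientation by Cre. The heterozygous and homozygous mice also carried Villin-CreERT2, which confines Cre to the epithelium and makes it depend on tamoxifen, and the controls, littermates, lacked it. Whether the controls were heterozygous or homozygous for the transgene is not given in the sources used here. All mice, aged between 8 and 13 weeks, received tamoxifen at 100 mg/kg on 3 days and were sampled 2 weeks afterwards. There were 3 females and 3 males among the controls, and 2 females with 4 males in either IEC-Ppara group. The transgene acts in the epithelium of 1 line, whereas the libraries hold every cell type of the gut wall, so a lower level of a transcript cannot be told apart from fewer of the cells that make it.

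Library totals ran from 38528522 to 50376371 counts. Ppara, the overexpressed gene, ranged from 25.8 to 47.4 in controls, from 107 to 196 in heterozygous and from 184 to 279 in homozygous mice, in units of CPM, the scaled share of the counts of a library. Controls overlapped with neither group, so that no library went against its label as control or IEC-Ppara, but heterozygous 6 (196 CPM) lay above homozygous 2 (184 CPM), so Ppara does not check the labels of these 2 groups against each other. The epithelial markers Epcam and Vil1 were high in every library, with lowest values of 2208 and 2088 CPM. Control 2, control 3, heterozygous 2 and homozygous 1 stood apart by high B cell genes, and the main counts and medians below were also computed without these 4 libraries.

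Controls gave the baseline of the pathway, compared between genes as CPM per kilobase of exon. B2m, the light chain shared by all class I molecules, was highest, at 1172 ± 87.7 CPM per kilobase (SD, n = 6). The heavy chains H2-K1 and H2-D1 followed at 362 ± 33.3 and 345 ± 36.6, and the ranges of this pair overlapped. Psmb10 (75.9 ± 8.46) and Tapbp, which encodes tapasin (74.8 ± 4.95), formed the next tier and also overlapped. Tap1 (14.1 ± 5.19), Psmb8 (12.6 ± 2.24), Tap2 (11.4 ± 1.10) and Psmb9 (11.1 ± 2.36) lay close together, each overlapping its neighbour in the order. Nlrc5 was lowest, at 2.79 ± 1.37. The order of the tiers was thus clear in every control, and the order within each tier was not. Reads that match several near-identical heavy chain genes are not in these counts, which leaves the levels of H2-K1 and H2-D1 uncertain.

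The main question was whether overexpression of Ppara in the epithelium went with another level of these genes. All 10 had a mean below that of controls in both IEC-Ppara groups, and none passed edgeR's quasi-likelihood test. Log2 fold changes lay between -1.05 and -0.06 in heterozygous mice, with a median of -0.31, and between -0.91 and -0.04 in homozygous mice, with a median of -0.23. Over all genes tested the medians were -0.01 and 0.00. The genes with the largest differences were Nlrc5, Tap1, Psmb9 and Psmb8, while Tapbp was nearest to 0 in both groups. Both comparisons use the same 6 controls, so they are not independent of each other.

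At an edgeR adjusted p under 0.05, 0 of the 10 genes were called in homozygous mice, where 0.411% of all genes tested were, and 0 in heterozygous mice, where 0.293% were. At an unadjusted p under 0.05, 6 of the 10 were lower in each comparison, as were 4.03% of all genes for homozygous and 2.53% for heterozygous mice. Limma-voom also called 0 in both, beside 0.269% of all genes in heterozygous and 0.403% in homozygous mice. By limma-voom 6 had an unadjusted p under 0.05 in each, beside 4.94% and 7.73% of all genes, lower and higher ones together. DESeq2 called 0 in homozygous mice, again with 6 at an unadjusted p under 0.05, and 2 in heterozygous mice, Psmb9 (adjusted p = 0.0111) and Tap2 (adjusted p = 0.0158). DESeq2 called 0.633% of all genes in heterozygous and 1.08% in homozygous mice. By DESeq2 5.73% and 8.79% had an unadjusted p under 0.05, again lower and higher ones together. For comparison, 51.9% of all genes in homozygous and 52.5% in heterozygous mice had a log2 fold change below 0. Without control 6, the library with the highest level of 7 of the 10 genes, only 7 of the 10 stayed below controls in homozygous mice, with a median of -0.17 and 4 at an unadjusted p under 0.05. Homozygous 5 was the lowest of all 18 libraries for 6 of the 10 genes, and without it all 10 stayed below controls in homozygous mice, with a median of -0.17 and 5 at an unadjusted p under 0.05. In heterozygous mice all 10 stayed below controls without control 6, with a median of -0.25 and 5 at an unadjusted p under 0.05. Without the 4 libraries high in B cell genes, all 10 were below controls in both groups, with medians of -0.34 in heterozygous and -0.24 in homozygous mice, and 5 and 4 were at an unadjusted p under 0.05. For these fits with libraries left out, no share over all genes at that threshold is given here.

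**Figure D1:**
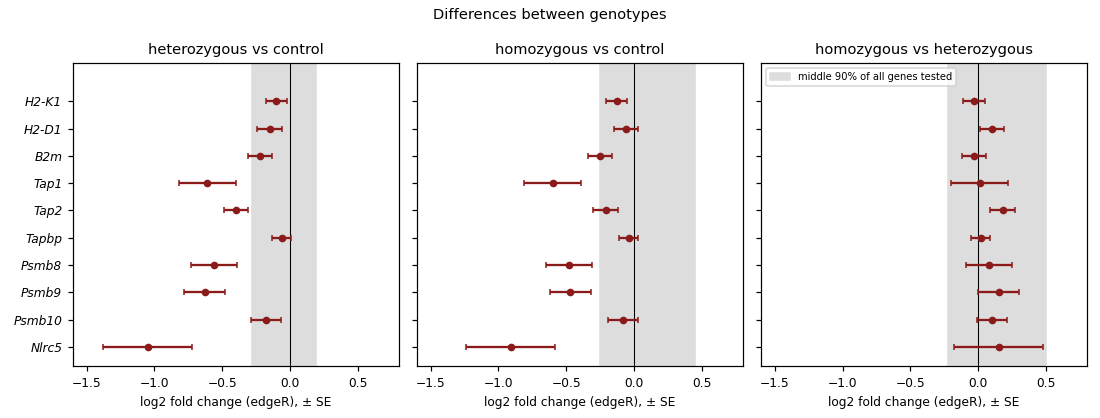
Log2 fold change of each gene (points) with its standard error (bars) from edgeR, for heterozygous against control, homozygous against control and homozygous against heterozygous mice. The grey band spans the middle 90% of all 12645 genes tested. The points of Nlrc5, Tap1, Psmb8 and Psmb9 lie left of the band in both comparisons with controls, and all 10 points lie within it where the IEC-Ppara groups are compared.

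The heavy chains and their partner make up the class I molecule itself. H2-K1 (ENSMUSG00000061232, chr17:33996017-34000347 of GRCm38, minus strand) was at 927 CPM in the lowest control, 1101 at the median and 1183 in the highest. The same 3 values were 944, 969.5 and 1004 in heterozygous and 798, 987 and 1082 in homozygous mice. All 6 libraries of each IEC-Ppara group lay below the median control, but the ranges overlapped, and the log2 fold changes were -0.10 ± 0.08 (SE, -0.06 without control 6) and -0.13 ± 0.08 (-0.08 without homozygous 5). H2-D1 (ENSMUSG00000073411, chr17:35262730-35267499, plus strand) was at 741, 915 and 978 CPM in controls, 699, 819 and 847 in heterozygous and 710, 858 and 989 in homozygous mice. Its highest library of all 18 was a homozygous one, and the log2 fold changes were -0.15 ± 0.09 and -0.06 ± 0.09, or -0.09 and 0.00 without control 6.

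B2m (ENSMUSG00000060802, chr2:122147686-122153083, plus strand) lay in a narrow range in controls, with a lowest value of 923 CPM, a median of 1016 and a highest of 1082. Heterozygous mice were at 747, 855 and 939 CPM, and homozygous mice at 690, 880.5 and 938. In each IEC-Ppara group 5 of 6 libraries lay below every control, and the sixth fell within the control range. The log2 fold changes were -0.22 ± 0.09 and -0.25 ± 0.09, with edgeR adjusted p-values of 0.782 and 0.403. The exact permutation test of 6 against 6 libraries gave an unadjusted p of 0.00649 in both, where the smallest possible is 0.00216. Adjusted over all genes, these exact permutation p-values were 0.627 and 0.389. By the same exact permutation test the lowest unadjusted p of the 10 genes was 0.00433 in heterozygous mice (Tap2 and Psmb9, adjusted p = 0.582).

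Class I promoters are known to carry an element for NF-κB and one for interferon regulatory factors, followed by the SXY module through which RFX, CREB/ATF and NF-Y proteins and NLRC5 act. These stretches are shown because H2-K1 and H2-D1 carry the same elements in the same order, B2m carries some of them, and Tap1 and Psmb9 share 1 region between their start sites. RefSeq promoter windows (GRCm38.p6, from 250 bases before to 50 after a start) were found for 8 of the 10 genes, not for Tap2 and Nlrc5. Capitals mark, on either strand, the letters GGGATTCCC (NF-κB) and GAANNGAAA (interferon regulatory factors) in the heavy chains, 2 copies of GAAA spaced by 2 bases (also interferon regulatory factors) in B2m, and TGACG (CREB/ATF) and CCAAT (NF-Y) in all 4 stretches. GAANNGAAA partly overlaps in letters with the spaced GAAA pair, and CCAAT on the other strand reads ATTGG. The first 3 stretches run from 10 bases before the first to 10 bases after the last capitalised match, and a further TGACG of the B2m window, after its start, is not shown. The fourth is all that lies between the RefSeq starts of Psmb9 and Tap1.
H2-K1, chr17:34000325-34000467, minus strand: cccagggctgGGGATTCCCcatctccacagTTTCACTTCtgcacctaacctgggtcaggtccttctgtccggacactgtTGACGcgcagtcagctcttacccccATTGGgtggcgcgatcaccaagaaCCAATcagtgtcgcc
H2-D1, chr17:35262914-35263055, plus strand: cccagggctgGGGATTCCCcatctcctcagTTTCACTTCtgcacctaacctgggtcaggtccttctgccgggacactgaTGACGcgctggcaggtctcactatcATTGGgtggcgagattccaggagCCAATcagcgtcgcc
B2m, chr2:122147538-122147648, plus strand: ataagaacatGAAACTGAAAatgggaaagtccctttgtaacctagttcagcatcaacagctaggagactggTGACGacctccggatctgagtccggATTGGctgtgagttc
Psmb9 to Tap1, chr17:34187331-34187555, plus strand: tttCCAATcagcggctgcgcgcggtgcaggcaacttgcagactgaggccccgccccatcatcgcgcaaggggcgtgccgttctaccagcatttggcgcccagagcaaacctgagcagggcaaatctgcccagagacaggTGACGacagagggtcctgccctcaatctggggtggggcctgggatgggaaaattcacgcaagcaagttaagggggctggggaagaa

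The H2-K1 and H2-D1 stretches were identical in 126 of 143 aligned columns (88.1%), with every capitalised element in the same order. Among all 32851 promoter windows of the same length, GGGATTCCC occurred in 0.353%, GAANNGAAA in 7.52%, the GAAA pair in 3.44%, TGACG in 20.8% and CCAAT in 37.4%. The 2 shortest motifs are thus common in any promoter. Of the other windows, that of Tapbp held CCAAT alone, and those of Psmb8 and Psmb10 held none of these 5 motifs. A pair of copies of AGGTCA spaced by 1 base, the letters of the element bound by PPARα with RXR, occurred in 0.0396% of all windows and in those of 0 of the 8 genes, which says only that these letters are not in these windows.

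Tap1 and Tap2 form the peptide transporter. Tap1 (ENSMUSG00000037321, chr17:34187553-34197225, plus strand) was at 52.7 CPM in the lowest control, 71.1 at the median and 133 in the highest, which was control 6. It was at 35.6, 51.5 and 60.3 CPM in heterozygous and 32.5, 52.5 and 65.4 in homozygous mice. All IEC-Ppara libraries lay below the median control, 4 heterozygous and 3 homozygous libraries lay below every control, and the ranges overlapped. Its log2 fold changes were -0.61 ± 0.21 and -0.60 ± 0.21 (edgeR adjusted p = 0.635 and 0.408). They became -0.35 and -0.34 without control 6.

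Tap2 (ENSMUSG00000024339, chr17:34203527-34216321, plus strand) varied less within groups and had the lowest p of the 10 genes in heterozygous mice. Controls were at 36.6, 43.2 and 48.3 CPM for the lowest, the median and the highest library, heterozygous mice at 25.8, 32.3 and 37.9, and homozygous mice at 28.5, 38.0 and 42.1. In heterozygous mice 5 of 6 libraries lay below every control. The log2 fold change was -0.40 ± 0.09 in heterozygous mice (edgeR adjusted p = 0.0923, over the alternatives 0.0158 to 0.358) and -0.21 ± 0.09 in homozygous mice (edgeR adjusted p = 0.572). The call for heterozygous mice lay close to the threshold, and the edgeR adjusted p was 0.0452 without control 1 and 0.0312 without homozygous 5.

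Tapbp (ENSMUSG00000024308, chr17:33915899-33929292, plus strand), whose product tapasin holds the heavy chain next to the transporter, was the most even of the 10 genes. Its highest library was 1.33 times its lowest over all 18. Controls were at 254, 268 and 293 CPM for the lowest, the median and the highest, heterozygous mice at 234, 254 and 286, and homozygous mice at 224, 265 and 298. The log2 fold changes were -0.06 ± 0.07 and -0.04 ± 0.07, or -0.01 and 0.01 without control 6. Its exons share 149 bases with those of Zbtb22 on the same strand, a gene at 34.0 to 45.5 CPM, and reads there are ambiguous and not counted.

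Of the immunoproteasome subunits, Psmb8 and Psmb9 lay further below controls than Psmb10, though none of the 3 passed edgeR's test with all libraries (Psmb9 passed that of DESeq2 in heterozygous mice). Psmb8 (ENSMUSG00000024338, chr17:34197721-34201454, plus strand), which lies between Tap1 and Tap2, was at 31.5, 43.4 and 54.1 CPM in controls, 21.6, 28.2 and 36.0 in heterozygous and 19.9, 32.5 and 35.4 in homozygous mice. Psmb9 (ENSMUSG00000096727, chr17:34181987-34187764, minus strand) was at 31.0, 39.6 and 56.4 CPM in controls, 21.5, 26.1 and 32.9 in heterozygous and 20.9, 31.0 and 33.6 in homozygous mice. For both genes every IEC-Ppara library lay below the median control, while the ranges overlapped. Log2 fold changes of Psmb8 were -0.56 ± 0.17 and -0.48 ± 0.17 (edgeR adjusted p = 0.343 and 0.407). Those of Psmb9 were -0.63 ± 0.15 and -0.47 ± 0.15 (edgeR adjusted p = 0.112, over the alternatives 0.0111 to 0.336, and 0.297). Without control 4 the edgeR adjusted p of Psmb9 in heterozygous mice was 0.0473, and without control 6 its log2 fold change was -0.48 in heterozygous and -0.32 in homozygous mice. The exons of Psmb9 and Tap1 overlap by 212 bases on opposite strands, and the library protocol names no step that keeps the strand.

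Psmb10 (ENSMUSG00000031897, chr8:105935735-105938444, minus strand) was at 111, 129 and 153 CPM in controls, 91.6, 115 and 131 in heterozygous and 108.5, 117 and 144 in homozygous mice. Its log2 fold changes were -0.18 ± 0.11 and -0.08 ± 0.11, or -0.10 and 0.00 without control 6. The constitutive subunits that Psmb8, Psmb9 and Psmb10 replace are Psmb5, Psmb6 and Psmb7. Their log2 fold changes were 0.01 ± 0.08, -0.05 ± 0.08 and -0.05 ± 0.08 in heterozygous and 0.04 ± 0.08, -0.05 ± 0.08 and -0.01 ± 0.08 in homozygous mice. Psme1 and Psme2, the interferon-inducible proteasome activator, were at -0.11 ± 0.09 and -0.12 ± 0.10 in heterozygous mice and at -0.11 ± 0.09 and -0.11 ± 0.10 in homozygous mice. The means of these 5 genes thus lay within 0.12 of controls on the log2 scale.

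Nlrc5 (ENSMUSG00000074151, chr8:94434356-94527272, plus strand) had both the largest difference from controls and the widest spread. Its highest library was 9.13 times its lowest over all 18, and 3.50 times within controls. Controls were at 13.0, 22.4 and 45.4 CPM for the lowest, the median and the highest library, heterozygous mice at 4.98, 10.8 and 17.0, and homozygous mice at 7.70, 12.1 and 20.7. Control 6 was again the highest, every IEC-Ppara library lay below the median control, and 4 heterozygous and 3 homozygous libraries lay below every control. The log2 fold changes were -1.05 ± 0.33 and -0.91 ± 0.33 (edgeR adjusted p = 0.474 and 0.456), and -0.71 and -0.57 without control 6. Of the proteins that act beside NLRC5, Rfx5 was at -0.30 ± 0.14 and -0.18 ± 0.14, while Rfxap, Rfxank, Creb1, Nfya, Nfyb and Nfyc lay between -0.07 and 0.05 in heterozygous and between -0.15 (Rfxank) and 0.04 in homozygous mice. The highest control for Rfx5 was control 2, a library high in B cell genes (17.53 CPM, control median 11.08). The Rfx5 medians were 9.99 CPM in heterozygous and 9.97 CPM in homozygous mice. Irf1, an interferon regulatory factor induced by interferon-γ, was at -0.30 ± 0.18 in heterozygous and -0.28 ± 0.18 in homozygous mice. Control 6, at 241.9 CPM, drew the Irf1 mean of controls up, where the median control had 124.7 CPM. The Irf1 medians were 114.6 CPM in heterozygous and 117.8 CPM in homozygous mice. None of these genes passed edgeR's test (lowest adjusted p = 0.635, Rfxank in homozygous mice).

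**Figure D2:**
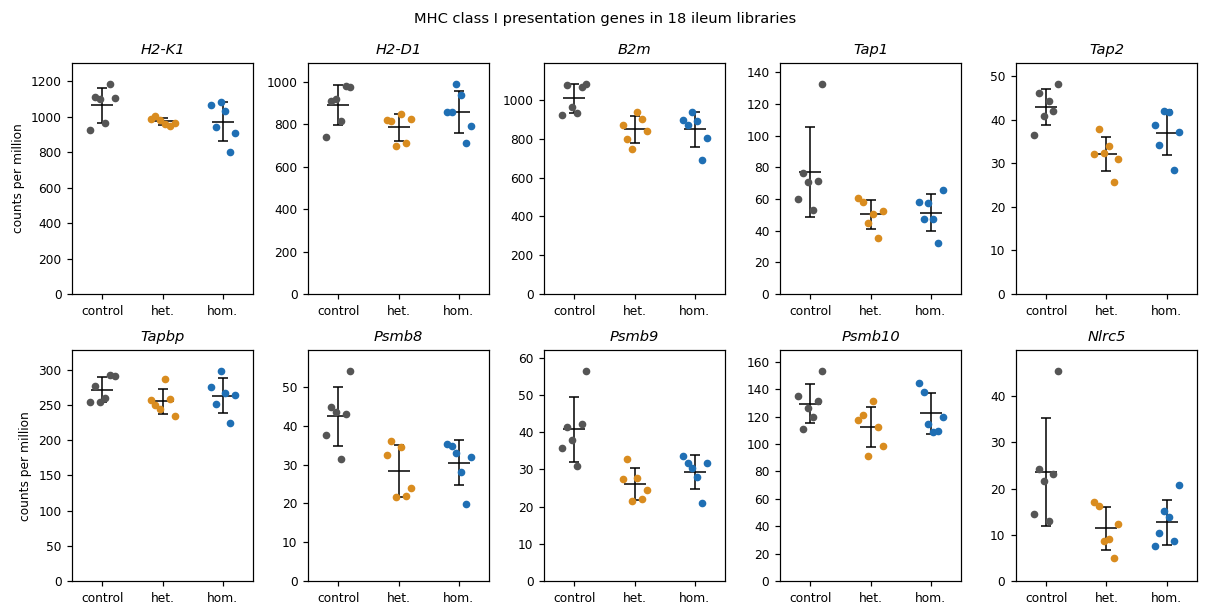
CPM (vertical axes, starting at 0, 1 scale per gene) of the 10 genes in each of 18 libraries, with 6 points per genotype in order of replicate number and the mean ± SD in black (het., heterozygous; hom., homozygous). Control 6 stands above the other controls for Tap1 (133 CPM) and Nlrc5 (45.4 CPM), and in every panel the ranges of the genotypes overlap.

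For none of the 10 genes were the ranges of an IEC-Ppara group and the controls separate, a pattern seen in 0.854% of all genes for homozygous and 0.467% for heterozygous mice. Between the IEC-Ppara groups, 8 of the 10 genes were higher in homozygous mice, where 49.9% of all genes were. Their median log2 fold change was 0.09, between -0.03 for H2-K1 and B2m and 0.18 for Tap2. With 1 library left out this median ran from 0.03 (without heterozygous 3) to 0.14 (without homozygous 5), where 3 and 0 of the 10 genes were lower in homozygous mice. By edgeR, 0 of the 10 had an adjusted p under 0.05 (0.00791% of all genes) and 0 an unadjusted p under 0.05, for which no share over all genes is given here. DESeq2 and limma-voom called 0 of the 10 as well, where they called 10 and 1 of all genes tested. The difference in Tap2 was 0.18 ± 0.09, or 1.13-fold with bounds of 1.00 and 1.29 at 2 SE. For Nlrc5 the same bounds were 0.699 and 1.75, so that a sizeable difference in either direction was within error. Ppara itself was at 0.59 ± 0.17 in this comparison (edgeR adjusted p = 0.485).

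Males and females were compared across all 18 libraries with genotype as a covariate. The log2 fold changes of the 10 genes, male against female, lay between -0.20 (Nlrc5) and 0.11 (H2-K1), with 5 genes in each direction and a median of -0.01. Without control 6, a female, 1 of the 10 was lower in males, the median was 0.10 and 1 had an unadjusted p under 0.05. With all libraries, edgeR called 0 of the 10, beside 0.0554% of all genes, and 0 had an unadjusted p under 0.05, for which no share over all genes is given here. DESeq2 and limma-voom also called 0 of the 10, where they called 8 and 7 of all genes tested. With sex as a covariate, the median log2 fold change was -0.31 in heterozygous and -0.24 in homozygous mice.

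Other genes of the pathway were described by lists that do not contain the 10 genes, and in none of these lists did a gene pass edgeR's test in any comparison of genotypes. Of 16 tested class I heavy chains other than H2-K1 and H2-D1, 12 lay below controls in each IEC-Ppara group, with median log2 fold changes of -0.12 in heterozygous and -0.14 in homozygous mice, and 5 had an unadjusted p under 0.05 in each, 3 lower and 2 higher. The 2 higher ones in both groups, named after their values were seen, were Fcgrt, which encodes the neonatal Fc receptor (0.24 ± 0.08 and 0.29 ± 0.08, edgeR adjusted p = 0.52 and 0.149), and H2-Q10 (0.27 ± 0.13 and 0.28 ± 0.13). In the same list H2-Q7, a class Ib chain, was at -0.56 ± 0.26 and -0.49 ± 0.26, and H2-T23, which encodes the Qa-1 chain that presents leader peptides of other class I chains, at -0.04 ± 0.07 and -0.13 ± 0.07. For 10 genes of peptide loading and transport into the endoplasmic reticulum the medians were -0.08 and -0.02, with 0 genes at an unadjusted p under 0.05. In that list the chaperone Calr was at -0.14 ± 0.10 and -0.06 ± 0.10, its partner Pdia3 at -0.07 ± 0.08 and -0.03 ± 0.08, the trimming peptidase Erap1 at -0.11 ± 0.11 and -0.14 ± 0.11, and the peptide editor Tapbpl at -0.18 ± 0.10 and -0.11 ± 0.10. Control 6 drew up the control means of Erap1 (135.4 CPM, control median 111.3) and Tapbpl (77.16 CPM, control median 56.35). The medians of 18 genes of the constitutive proteasome and of proteasome activators, Psme1 and Psme2 among them, were -0.05 and -0.04, also with 0 genes at an unadjusted p under 0.05. Those of 20 regulators of class I genes were -0.04 and -0.05. At an unadjusted p under 0.05 were 5 of them in heterozygous mice, 4 lower and 1 higher, and 1, lower, in homozygous mice. Over all genes tested, 2.53% and 4.03% were lower at that threshold.

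Interferon targets were described by 1 list for interferon-γ and 1 for type I interferons. All 24 interferon-γ targets, such as the guanylate-binding proteins and immunity-related GTPases, lay below controls in heterozygous mice, with a median log2 fold change of -0.55 and 16 at an unadjusted p under 0.05. In homozygous mice 20 of the 24 did, with a median of -0.25 and 5 at an unadjusted p under 0.05. Over all genes tested, 52.5% in heterozygous and 51.9% in homozygous mice lay below controls. Lower at an unadjusted p under 0.05 by edgeR were 2.53% and 4.03%. The 24 genes summed to 467 to 881 CPM in controls, 348 to 467 in heterozygous and 363 to 624 in homozygous mice, and the highest control was control 6, where the median control had 528 CPM. Of 18 tested type I interferon targets, 16 lay below controls in heterozygous and 10 in homozygous mice, with medians of -0.17 and -0.05 and 0 at an unadjusted p under 0.05 in either. Ciita, the counterpart of Nlrc5 for MHC class II, was at -0.81 ± 0.33 and -1.15 ± 0.33 (edgeR adjusted p = 0.817 and 0.218).

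**Figure D3:**
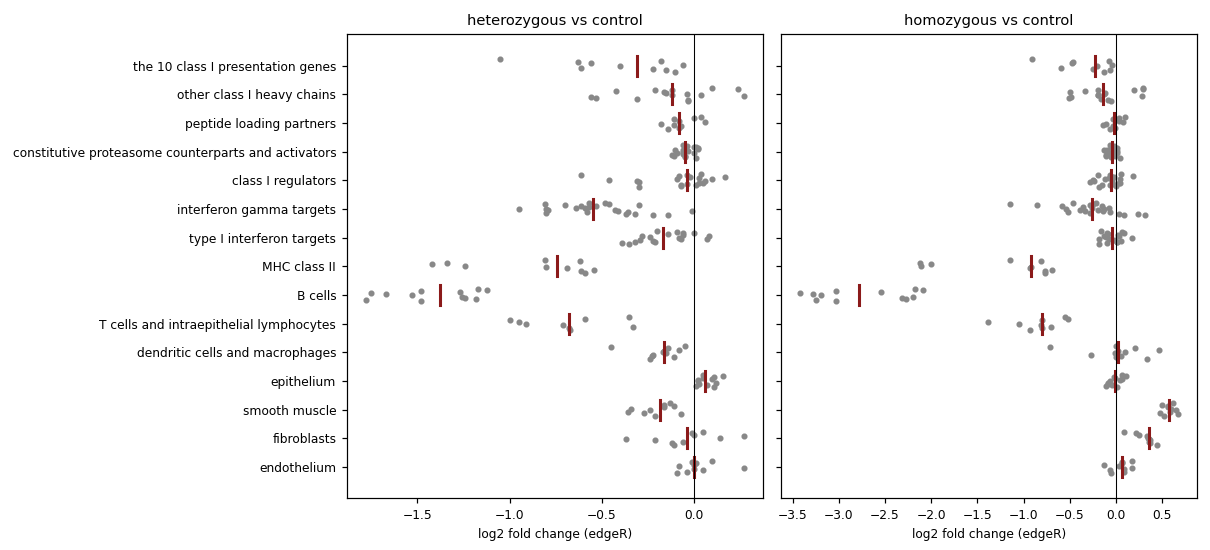
Log2 fold change from edgeR of every tested gene of each list (grey points) and the median of the list (red line), for heterozygous (left) and homozygous (right) mice against controls; the horizontal scales differ. The medians of the class I genes, at -0.31 and -0.23, lie between those of the list of constitutive proteasome and activator genes (-0.05 and -0.04) and those of the T cell list (-0.68 and -0.80).

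Markers of lymphocytes and MHC class II genes lay below controls as the class I genes did, and none passed the test. The shares of all genes tested that lay below controls were 52.5% in heterozygous and 51.9% in homozygous mice. At an unadjusted p under 0.05 by edgeR, 2.53% and 4.03% were lower. All 9 tested of 14 genes of T cells and intraepithelial lymphocytes lay below controls in both groups, with medians of -0.68 and -0.80 and with 7 and 9 at an unadjusted p under 0.05. The 14 genes summed to 55.7 to 141 CPM per control, 46.1 to 86.6 per heterozygous and 46.7 to 79.8 per homozygous library. All 10 tested MHC class II genes lay below controls, with medians of -0.74 and -0.92 and with 7 and 10 at an unadjusted p under 0.05. The list of 11 summed to 1330 to 2896 CPM in controls, 1013 to 2238 in heterozygous and 933 to 1373 in homozygous mice. For 12 B cell genes the medians were -1.37 and -2.79, with 0 and 12 at an unadjusted p under 0.05 and with sums of 20.5 to 623, 17.7 to 353 and 14.9 to 102 CPM. The median sums were 25.1, 23.4 and 18.2 CPM, and the highest sums came from the libraries that stood apart (control 2, heterozygous 2 and homozygous 1). No gene of these 3 lists was at 0 in all libraries. Of 11 genes of dendritic cells and macrophages, all 11 lay below controls in heterozygous mice but only 5 in homozygous mice, with medians of -0.16 and 0.02. The 12 epithelial genes had medians of 0.06 and -0.02. In homozygous mice all 10 smooth muscle genes and all 10 fibroblast genes lay above controls, with medians of 0.57 and 0.35, where the medians in heterozygous mice were -0.18 and -0.03. Of these genes, 0 of smooth muscle and 2 of fibroblasts had an unadjusted p under 0.05 in homozygous mice. Control 6, the highest library in the class I genes, also had the highest summed T cell genes among controls (141 CPM) and interferon-γ targets, and the lowest summed smooth muscle genes (521 CPM, where the median control had 3640). Heterozygous 3 had the lowest summed smooth muscle genes of its group (657 CPM) and was among the 3 lowest libraries for 7 of the 10 class I genes. With the B cell score as a covariate, all 10 class I genes stayed below controls in both groups, with medians of -0.30 in heterozygous and -0.22 in homozygous mice. The part of B cells or of any other cell type in the differences of the class I genes was not tested.

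Within genotypes, the 10 genes varied together to different degrees. Correlations were taken over the 18 libraries on log2 CPM after the mean of each genotype was subtracted, and they describe libraries that share tissue, depth and cell makeup. Over the 45 pairs of genes the median r was 0.66, between 0.13 and 0.94, beside a median of -0.01 and a 95th percentile of 0.61 over all pairs of genes tested. The heavy chains, B2m and Tapbp were close to each other (0.69 to 0.88), with 0.84 between H2-K1 and H2-D1. High values were also found for Psmb8 with Psmb9 (0.94), Psmb9 with Tap1 (0.91), and Tap1 with Nlrc5 (0.83). These sets were not separate, since H2-D1 reached 0.72 with Psmb8 and Psmb9 and 0.69 with Tap1, as high as its 0.69 with Tapbp. Psmb10 reached 0.71 with Psmb8 and 0.70 with Psmb9, but 0.13 with Nlrc5, which reached 0.60 and 0.67 with that pair. Without control 6 the median r was 0.58, and that of Psmb8 with Psmb9 was 0.96. Between Nlrc5 and B2m r was 0.23 (0.03 without control 6), and between Nlrc5 and Psmb10 it was -0.17 without control 6.

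**Figure D4:**
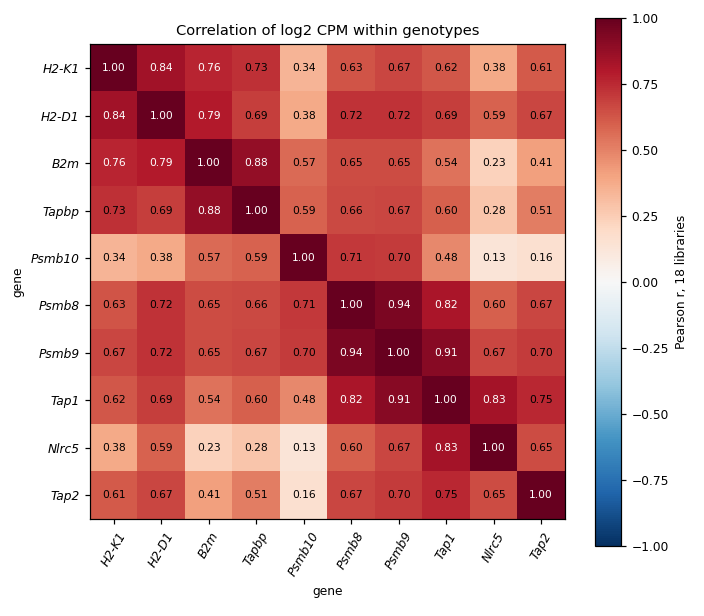
Pearson r between the log2 CPM of each pair of the 10 genes over 18 libraries after subtraction of the genotype means, on a scale from -1 (blue) to 1 (red). The heavy chains, B2m and Tapbp have high values with each other (0.69 to 0.88), as do Psmb8, Psmb9 and Tap1 (0.82 to 0.94), while Psmb10 and Nlrc5 reach 0.13 with each other.

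The genes outside the set whose pattern was most like the mean of the set over these 18 libraries included Ifi47 (r = 0.87), Tapbpl and Igtp (0.84), Cd274 and H2-DMb1 (0.83), Ubd, Zbp1 and Irgm2 (0.82) and Uba7 (0.79). Among them, Ifi47, Igtp and Irgm2 encode immunity-related GTPases, Cd274 encodes PD-L1, and H2-DMb1 encodes a chain of the class II peptide exchanger. Without control 6 the r of the genes named lay between 0.61 (Uba7) and 0.84 (H2-DMb1). Their log2 fold changes lay between -1.12 (Ubd) and -0.18 (Tapbpl) in heterozygous and between -0.93 (Ubd) and -0.11 (Tapbpl) in homozygous mice, and none passed edgeR's test. Of the lists, the interferon-γ targets were most like the 10 genes (r = 0.86, 0.77 without control 6), with 0.88 for Tap1, 0.82 for Nlrc5 and 0.36 for Psmb10. The lists of T cells and intraepithelial lymphocytes and of class I regulators were both at 0.72 (0.64 and 0.54), type I interferon targets at 0.67 (0.54) and the other class I heavy chains at 0.41 (0.65). For the T cell list r was 0.76 with Psmb8 and 0.39 with Tap2. For B cells r was 0.16 (0.42), for MHC class II 0.41 (0.58), for epithelium 0.18 (-0.01) and for smooth muscle -0.29 (0.27). The lists of peptide loading and of the constitutive proteasome with activators were at 0.29 (-0.05) and 0.11 (0.11). Psmb10 differed from the mean of the set, with 0.67 and 0.76 for these 2 lists. For epithelium it reached 0.73, where the other genes of the set lay between -0.20 (Tap2) and 0.40 (B2m).

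**Figure D5:**
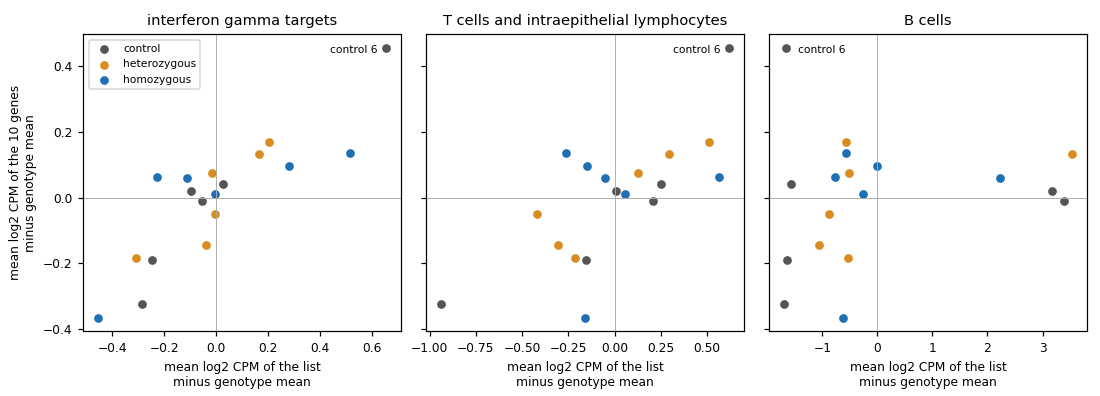
Mean log2 CPM of the 10 genes (vertical axis) against that of 3 gene lists (horizontal axes), each minus its genotype mean, with 1 point per library coloured by genotype. The points run upward along the interferon-γ axis (r = 0.86) and the T cell axis (r = 0.72), and spread without such a trend along the B cell axis (r = 0.16), where 4 libraries stand to the right.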

How the data were processed

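RNA from whole ileum was selected for poly-A and sequenced as paired ends. Per the labels and the study's methods, the authors aligned reads with STAR to GRCm38 and counted unique, unambiguous reads per gene with featureCounts; the deposited counts carry no normalization. The deposited CPM values divide these counts by the library total (recomputed values differed by at most 4.7e-11). The deposited log2 CPM table was not used. Totals of 38528522 to 50376371 counts per library put even 3 CPM above 100 counts, so the spread between mice limits precision.

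Protein-coding genes above 3 CPM in 4 or more libraries (12645 genes) were fitted with edgeR 4.0.16 (R 4.3.3, TMM, quasi-likelihood, 1 coefficient per genotype, 18 libraries), with Benjamini-Hochberg adjustment over all of them at 0.05, and a pipeline test on simulated data. Sex was compared with genotype as a covariate. Correlations were taken on log2 CPM (prior count 2). Single genes were also compared by two-sided exact permutation of CPM (924 arrangements). Alternatives were DESeq2 1.42.0, limma-voom (limma 3.58.1), other scalings, filters, biotypes, covariates, a replicate block and leaving out libraries. The 10 genes and the lists were chosen with earlier results of these data known. Named besides the 10 genes were preset pathway genes, Ppara, any list gene called (there were none) and, from the 10 genes most correlated with the set, those reported; epithelial markers and single example pairs were chosen after their values were seen. Some values are not reported here.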

Additional observations from a re-analysis of the deposited data

Results flagged for a closer look

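Among the 30 combinations of gene and genotype, 2 had a library whose distance to its nearest neighbour, over the range of its group of 6, was above Dixon's critical value. Tap1 was at 133 CPM in control 6, where the other controls were at 52.7 to 76.5 CPM. Nlrc5 was at 45.4 CPM in control 6, where the other controls were at 13.0 to 24.3 CPM. Chance gives about 1 such library in 20 groups, and both cases are the same library.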

How the results depend on the processing

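Of the 300 refits of single genes for heterozygous against control mice, 295 kept the direction and stayed without a call, and 5 kept the direction with a call (Tap2 and Psmb9). Of the 300 for homozygous mice, 297 kept both, and 3 turned, all without control 6: over the fits with 1 library left out, H2-D1 lay between -0.10 and 0.00, Tapbp between -0.07 and 0.01 and Psmb10 between -0.13 and 0.00. The number of genes called among the 10 in heterozygous mice was 2 with DESeq2 and 0 to 1 with 1 library left out. In the other comparisons it was 0 in every alternative. With 1 library left out the median log2 fold change ran from -0.34 to -0.25 for heterozygous and from -0.26 to -0.17 for homozygous mice against controls, from 0.03 to 0.14 between the IEC-Ppara groups, and from -0.10 to 0.10 for males against females. The replicate numbers did not pair the mice (r of same-numbered deviations between -0.606 and 0.644), and with the replicate block 0 of the 10 were called in each comparison, with medians of -0.31, -0.23 and 0.08. Over all genes, calls for heterozygous and homozygous mice numbered 37 and 52, against 80 and 136 with DESeq2 and 15 and 31 without the 4 libraries high in B cell genes; for heterozygous mice they were 22 with the replicate block and 23 with only the 12 libraries compared, and for homozygous against heterozygous 1, against 10 with DESeq2.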
